A study of Homo sapiens with 6 samples.

Results

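The promoters of 10 genes, MAP10, NCKAP5, TNS1, TACR3, DNAH8, TRIM4, LY6K, SCT, LGALS12 and MMP19, had 50% or more of their CpG calls methylated in conventional human embryonic stem cells and retained 80% or more of that share after resetting, while most of the genome lost its methylation. A promoter was taken as the 1000 bp before and the first 500 bp after the start of a gene's canonical transcript on GRCh37. All positions count from this start. Other starts of coding transcripts lie within 3 kb of it at SCT (4), TRIM4, LY6K and LGALS12 (3 each), and DNAH8 and MMP19 (1 each). Of 19819 promoters of protein-coding genes, 19300 reached 10 calls in each library, where a call is the reading of 1 cytosine in 1 read as methylated or unmethylated. Of these, 5129 passed the conventional minimum of 50% and 19 of them also retained 80% (0.37%). The 10 promoters described here are among the 19. The other 9 had levels from 50.7% to 80.6% in conventional cells and kept between 80.9% and 89.9%.

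DNA methylation at promoters is the addition of a methyl group to cytosine in the sequence CG, and dense methylation around a gene's start is generally found where the gene is silent. CpG islands, the stretches in which CG is not depleted, are mostly free of methylation, while sparse CpGs between them are mostly methylated. In the mammalian embryo most methylation is lost before implantation, apart from imprinted regions and some repeats, and naive pluripotent cells resemble that stage in having a lowly methylated genome.

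Genomic DNA of H9 cells, an established human embryonic stem cell line, was sequenced after bisulfite conversion, with 3 libraries of each group. Conventional cells were grown on mouse embryonic fibroblast feeders in medium with 20% KSR serum replacement and 10 ng/ml bFGF. Reset cells descended from H9 cells carrying doxycycline-inducible NANOG and KLF2 transgenes. They had been induced with 1 μM DOX and then kept without it, on the same feeders, in t2iL+Gö (1 μM CHIR99021, 1 μM PD0325901, human LIF and 5 μM Gö6983). Both groups were held at 5% oxygen. The study describes the libraries as biological replicates, but whether the reset libraries came from separate resettings is not given in the sources used here, so the p-values below measure the spread between these libraries only. Each library held between 70255576 and 97920785 calls, or 2.51 to 3.49 calls per CpG of the genome. Methylated calls made up 84.2% to 84.5% of all calls in the conventional libraries, against 29.5% to 30.3% in the reset ones. The libraries hold no expression values, so neither the silence of these genes nor the identity of the cells could be checked from them. The study's own expression data were not used here.

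The level of a whole promoter is an average over its CpGs, and the first question was whether parts of a promoter changed in opposite directions under a steady average. By tiles of 200 bp opposite changes were seen in 1.22% of all 19300 promoters, whatever their average. They were seen in 3 of the 10, those of SCT, TACR3 and TRIM4. For SCT this held under every tile setting that was run, while TACR3 was not among such promoters at a minimum of 10 calls per tile and library, nor TRIM4 with tiles of 500 bp or tiles shifted by 100 bp, and neither was when 40 points were required. Of the 200-bp tiles with no overlap of the groups and a difference of at least 20 points, those touching no untranslated region were considered. The sequences below are, for TACR3 and TRIM4, the ones with the largest gain and the largest loss. They are shown so that the CpG content of gaining and losing tiles can be read from them. All are from the GRCh37 reference, written 5′ to 3′ on the strand of the gene, with every CG in capitals.
TACR3 raised tile, chr4:104641143-104641342, minus strand: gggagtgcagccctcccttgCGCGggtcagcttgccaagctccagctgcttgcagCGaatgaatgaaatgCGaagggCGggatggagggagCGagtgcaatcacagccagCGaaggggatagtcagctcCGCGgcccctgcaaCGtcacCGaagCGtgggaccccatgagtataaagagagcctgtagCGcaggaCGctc
TACR3 lowered tile, chr4:104641743-104641942, minus strand: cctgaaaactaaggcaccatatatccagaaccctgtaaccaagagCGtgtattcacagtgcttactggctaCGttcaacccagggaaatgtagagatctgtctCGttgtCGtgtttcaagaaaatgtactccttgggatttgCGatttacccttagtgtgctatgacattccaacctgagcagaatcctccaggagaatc
TRIM4 raised tile, chr7:99516754-99516953, minus strand: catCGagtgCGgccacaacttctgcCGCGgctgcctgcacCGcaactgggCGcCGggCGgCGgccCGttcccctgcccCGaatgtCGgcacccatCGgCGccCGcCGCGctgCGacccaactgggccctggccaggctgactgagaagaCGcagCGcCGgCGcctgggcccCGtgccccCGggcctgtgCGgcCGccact
TRIM4 lowered tile, chr7:99517954-99518153, minus strand: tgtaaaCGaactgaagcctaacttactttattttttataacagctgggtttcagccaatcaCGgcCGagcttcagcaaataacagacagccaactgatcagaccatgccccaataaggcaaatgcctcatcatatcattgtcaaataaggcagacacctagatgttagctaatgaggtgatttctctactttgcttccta
The TACR3 gaining tile lies in the last 200 bp before the start, between coding genes, and the TRIM4 gaining tile lies from 200 to 400 bp downstream, in coding sequence of an exon. The losing tile of TACR3 lies from 800 to 600 bp upstream and that of TRIM4 from 1000 to 800 bp upstream, both between coding genes. The TACR3 gaining tile held 14 whole CGs at 62.0% G+C and the losing tile 5 at 45.0%. For TRIM4 these were 26 at 76.5% and 3 at 41.0%.

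All values of the 10 promoters in the comparison of reset with conventional cells are descriptions, without a test, because the promoters were chosen by their levels in these same 6 libraries. Levels are means ± SD over 3 libraries. The counting error of 1 library's promoter level was between ±6.01 and ±16.2 points (mean distance of the exact 95% binomial bounds from its middle). This covers counting error only and takes each call as independent. Reads may be copies of the same molecule, and 1 read can give several calls, so the true error may be larger.

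SCT encodes secretin, the gut hormone that stimulates bicarbonate secretion from the pancreas. Its promoter (chr11:626682-628181) was methylated at 58.0%, 60% and 48.6% in the conventional libraries and 60.2%, 65.0% and 51.9% in the reset libraries, or 55.5% ± 6.11 and 59.0% ± 6.64. The libraries of the groups overlapped. It had the most CpGs of the 10, 138, and 96.6% of it lay in CpG-dense sequence, defined as windows of 200 bp with at least 50% G+C and an observed to expected CpG ratio of at least 0.6.

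The steady average of SCT covered the widest change inside a promoter. In the 200 bp before the start, methylation was 10.4%, 3.23% and 8.11% in conventional cells and 75.6%, 73.1% and 48.4% in reset cells, from 7.25% ± 3.67 to 65.7% ± 15.04. In the first 200 bp of the gene, which holds untranslated and coding sequence, it was 0%, 2.78% and 0% in conventional cells and 60%, 90.9% and 75% in reset cells. Every reset library was far above every conventional one in both tiles, but the second tile rested on 5 to 36 calls per library, and the conventional libraries at 0 had 15 and 6 calls, which allow levels of up to 20% and 50%.
The 3 tiles from 1000 to 400 bp upstream changed the other way. From 800 to 600 bp upstream the level was 91.7%, 95.5% and 74.4% in conventional cells and 54.5%, 51.1% and 26.3% in reset cells, a mean difference of -43.2 points. The tiles on each side of it differed by -39.7 points each, and in all 3 no reset library reached the lowest conventional one.

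TACR3 encodes the neurokinin 3 receptor, which binds neurokinin B in neurons of the reproductive axis. Its promoter (chr4:104640643-104642142) stood at 54.8%, 56.0% and 56.6% in conventional cells and 53.7%, 57.0% and 57.4% in reset cells. These were the closest values of the 10, with a mean difference of 0.21 points and overlapping groups. The 200 bp before the start held 30.8%, 52.0% and 38.6% in conventional cells and 62.5%, 65.9% and 88.9% in reset cells, a difference of 31.9 points with no overlap. The tile from 200 to 400 bp downstream had a larger mean difference, 35.9 points, but its groups overlapped at 47.8% in a conventional library and 47.1% in a reset one. From 800 to 600 bp upstream the level went from 81.1% ± 11.9 to 37.5% ± 19.9, and from 1000 to 800 bp upstream from 91.1% ± 1.53 to 64.6% ± 13.01, neither with overlap.

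TRIM4 encodes a RING-finger ubiquitin ligase of the tripartite motif family. Its promoter (chr7:99516654-99518153) had 46.0%, 68.8% and 52.7% in conventional cells and 50%, 62.2% and 62.4% in reset cells, with the conventional libraries enclosing the reset ones. In coding sequence from 200 to 400 bp downstream the level was 18.8%, 40.5% and 37.9% in conventional cells and 60%, 68.8% and 78.4% in reset cells, with no overlap and a difference of 36.7 points. From 1000 to 800 bp upstream it was 83.3%, 88.9% and 100% in conventional cells and 36.4%, 44.4% and 18.2% in reset cells, again with no overlap. The tile at the start itself was the least settled: its conventional libraries read 8.20%, 72.9% and 31.4% at 35 to 61 calls per library, so no difference there could be told from their spread.

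**Figure D1:**
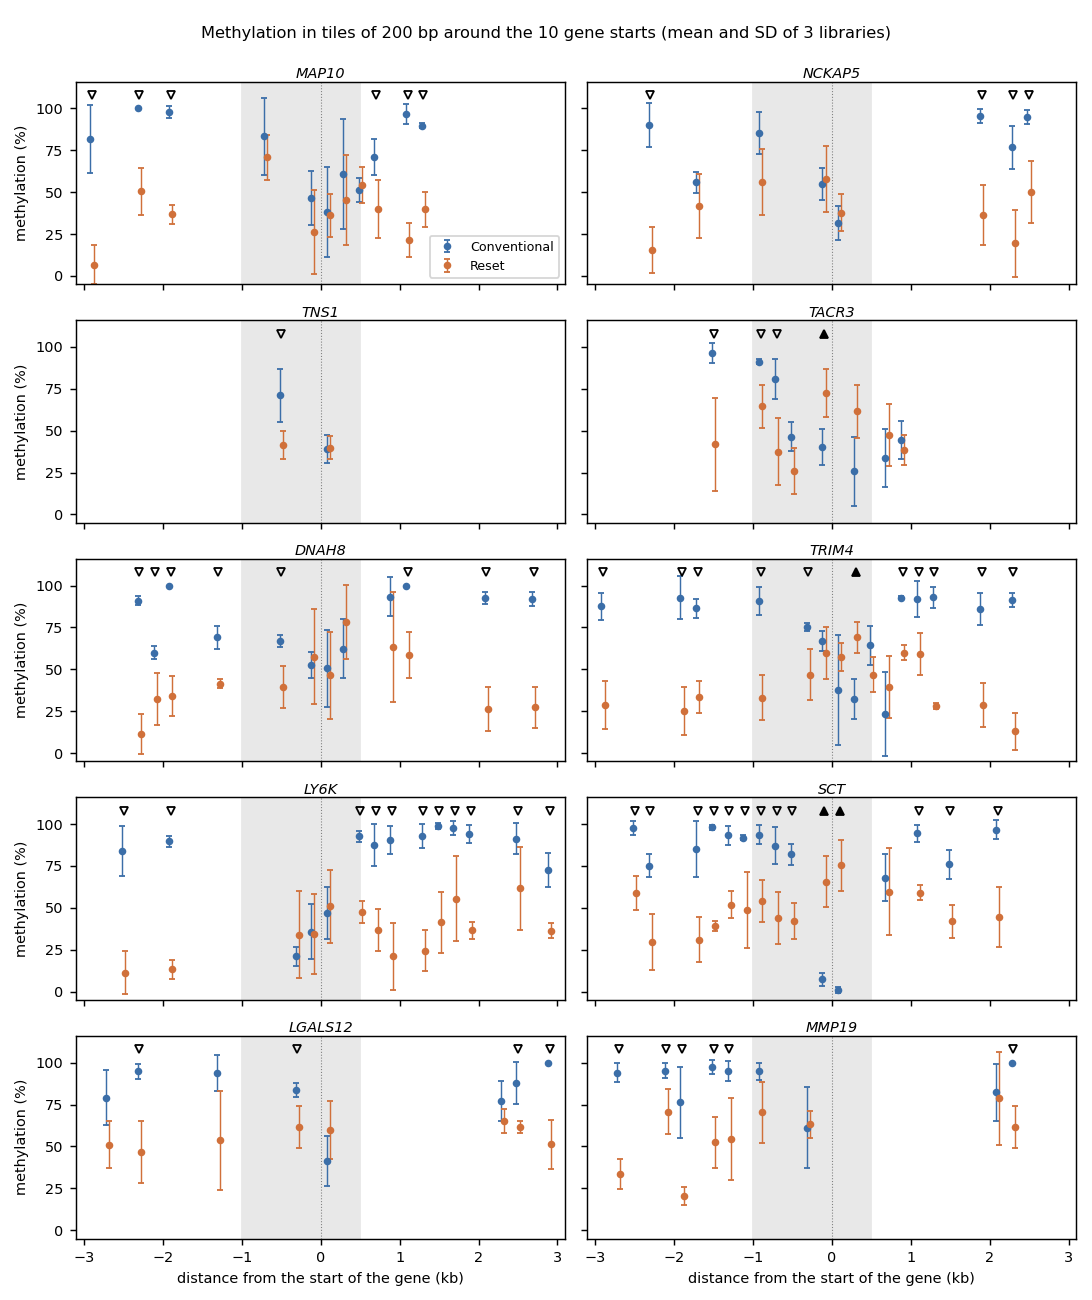
Methylation (%) of 200-bp tiles against the distance from the gene's start (kb, in the direction of transcription), 1 panel per gene, with mean and SD of 3 conventional (blue) and 3 reset (orange) libraries. Only tiles with 5 or more calls per library are drawn, the promoter is shaded grey, and filled upward or open downward triangles mark tiles in which the groups did not overlap and differed by at least 20 points; at SCT 2 upward triangles sit at the start and 3 downward ones further up in the promoter.

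The other 7 promoters had no tile of that kind on the gaining side. They differed by -0.42 to -11.1 points as a whole. DNAH8, which encodes a dynein heavy chain of the sperm flagellum, had 60%, 60.6% and 54.8% in conventional cells and 37.2%, 60.5% and 67.4% in reset cells (chr6:38682087-38683586). LGALS12, the gene of galectin-12, a sugar-binding protein of fat cells, had 58.3%, 68.6% and 63.4% in conventional cells and 41.1%, 75% and 73.0% in reset cells (chr11:63272556-63274055). In both genes reset replicate 1 was well below the other two reset libraries, which lay at or above most conventional ones.

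MAP10, a microtubule-associated protein gene, was at 56.9%, 64.3% and 46.7% in conventional cells and at 37.2%, 56.4% and 53.2% in reset cells (chr1:232940162-232941661). TNS1, whose protein tensin 1 couples actin filaments to integrins, was at 53.9%, 55.4% and 55.2% in conventional cells and at 36.7%, 54.8% and 46.9% in reset cells (chr2:218867219-218868718). The groups overlapped for MAP10, and those of TNS1 did so only within 1 point, through reset replicate 2 and conventional replicate 1. MMP19, a matrix metalloproteinase gene, was at 76.0%, 57.9% and 79.3% in conventional cells and at 54.7%, 60% and 66.7% in reset cells (chr12:56236221-56237720). Its overlap came from conventional replicate 2 alone.

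NCKAP5, named for the association of its protein with the adaptor NCK, was at 56.5%, 61.4% and 53.3% in conventional cells and at 48.5%, 41.1% and 48.2% in reset cells (chr2:134325535-134327034). It was the only one of the 10 whose groups did not overlap, against 73.5% of all promoters and 99.5% of the 5110 that started at 50% or more and did not meet the rule, a difference that the rule itself largely fixes. At 80.5% kept it was the promoter nearest to the threshold from inside. LY6K, a gene of the Ly6 family of membrane-anchored proteins with expression in testis, was at 61.5%, 50% and 48.4% in conventional cells and at 50%, 32.1% and 47.7% in reset cells (chr8:143780529-143782028). Just outside the threshold lay GALNT5, at 51.5% and 41.2% with 79.9% kept. For the starting level, ARMCX6 at 50.7% was just inside and ECRG4 at 49.8% just outside.

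Of these 7, TNS1, DNAH8, LY6K and LGALS12 each had 1 promoter tile in which the groups did not overlap and reset cells were lower by at least 20 points, and MAP10, NCKAP5 and MMP19 had none. The largest of these differences, -45.1 points, was from 400 to 600 bp downstream of the start of LY6K, where untranslated and coding sequence went from 92.8% ± 3.36 to 47.7% ± 6.64. At DNAH8 and TNS1 the tile lay from 600 to 400 bp upstream, with 66.96% ± 3.49 and 71.3% ± 15.8 in conventional cells and 39.6% ± 12.7 and 41.4% ± 8.34 in reset cells. At LGALS12 it lay from 400 to 200 bp upstream and went from 83.6% ± 4.06 to 61.7% ± 12.6.

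**Figure D2:**
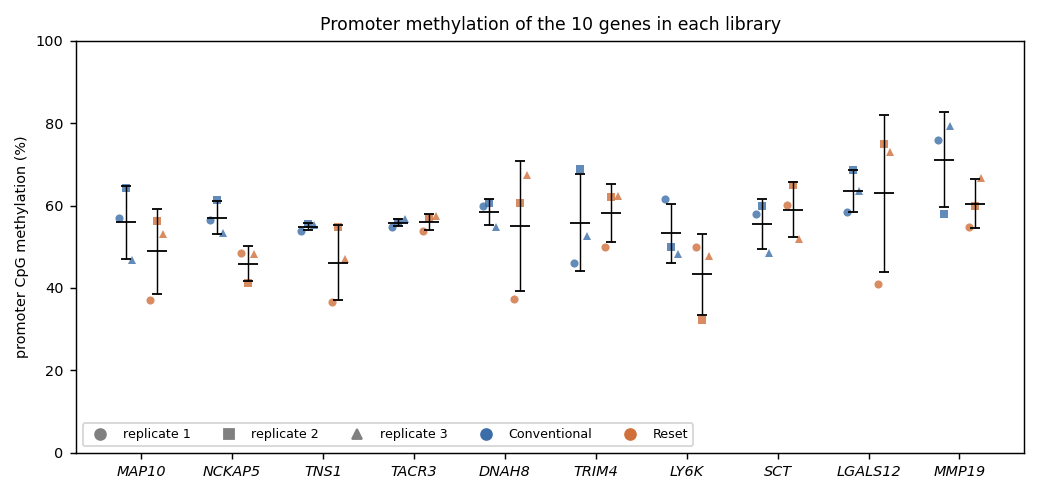
CpG methylation (%) of the whole promoter in each library for the 10 genes, with conventional libraries in blue and reset libraries in orange, the replicate number as the symbol, and bars for the mean and SD of 3 libraries. The groups overlap in 9 of the 10, while 99.5% of the promoters that started at 50% or more and did not meet the rule have no overlap, and reset replicate 1 (orange circles) is the lowest reset library in 7.

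Reset replicate 1 was the lowest reset library in 7 of the 10 promoters, against 37.1% of the 5110 promoters that were at least 50% methylated in conventional cells and did not meet the rule. Whether this played a part in the values was not tested. Without it, 8 of the 10 still met the rule. Over the 6 ways of leaving out 1 library, MAP10, TACR3, DNAH8, SCT and LGALS12 met the rule in all 6, TNS1, TRIM4 and MMP19 in 5, NCKAP5 in 3 and LY6K in 1.

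Each promoter was then divided into tiles of 200 bp, of which 8 overlap the promoter and 22 lie in the flanks out to 3 kb on each side. A tile was called raised when every reset library was above every conventional one and the means differed by at least 20 points, and lowered in the opposite case. The 10 promoters held 38 tiles with 5 or more calls per library, of which 4 were raised (10.5%), 11 lowered (28.9%) and 23 neither. Over all 19300 promoters 1.29% of tiles were raised and 26.5% lowered. In the 5110 promoters that started at 50% or more and did not meet the rule, 0.0813% were raised and 87.7% lowered. These shares are set side by side as description, since the choice of the 10 promoters fixes much of the difference. A raised and a lowered tile occurred together in 3 of the 10, in 2 of the other 9 promoters that met the rule, and in 10 of the 5110. Over all 19300 promoters this was so in 236 (1.22%). The count of 3 became 6, with 9 raised tiles, without reset replicate 1. With 1 library fewer the classes are easier to meet, and 42 tiles were tested there in place of 38. Leaving out any other library gave a count of 3 or 4. The count became 1, SCT alone, when 40 points were required, and 2 with a minimum of 10 calls (SCT and TRIM4) or tiles of 500 bp (SCT and TACR3). Tiles shifted by 100 bp gave 3, with LGALS12 in place of TRIM4.

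The direction of change varied with position. The values of the 10 are a description, since the rule chose promoters that kept their average. Where some of their tiles fell, the others were largely bound to hold or rise. In the 5110 promoters 4885 of 4905 tiles from 1000 to 400 bp upstream had a lower mean in reset cells. So did all 12 tested ones of the 10 promoters. From 200 bp upstream to 400 bp downstream 13 of 19 had a higher mean, against 1.48% of 6353 such tiles in the 5110 promoters, and all 4 raised tiles lay there. The positions beside that stretch were mixed: from 400 to 200 bp upstream 2 tiles were higher and 2 lower, and from 400 to 600 bp downstream 1 was higher and 2 lower. Of the 11 lowered tiles 3 lay at these positions, those of TRIM4 and LGALS12 upstream and that of LY6K downstream. Only 3 to 8 of the 10 promoters had a tested tile at any 1 position. Median levels at those positions went from 91.1% to 55.9% in the tiles from 1000 to 800 bp upstream (5 promoters), and from 38.6% to 48.7% in the first 200 bp of the gene (8 promoters). The same tiles of the 5110 promoters went from 91.8% to 34.5% and from 88.8% to 30.7%.

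Within a promoter the range between its lowest and highest tile had a median of 58.4 points in conventional cells and 36.1 points in reset cells, over the 7 genes with at least 3 tested tiles. It was narrower in reset cells at most of them, but it was 16.4 and 38.7 points at DNAH8 and 45.1 and 44.6 points at MAP10. In the 5110 promoters the median range went from 16.7 to 25.7 points. The 2 tiles that were under 20% in conventional cells, both of SCT, had a median of 70.5% in reset cells. The 11 tiles at 80% or more went from a median of 87.2% to 54.0%. Of these 8 were lowered (72.7%), against 93.9% of 11068 such tiles in the 5110 promoters. Between 20% and 50% there were 13 tiles, of which 2 were raised and none lowered, while 57.6% of the 851 such tiles in the 5110 promoters were lowered. The grouping uses the measured conventional level of each tile, so these values are a description.

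**Figure D3:**
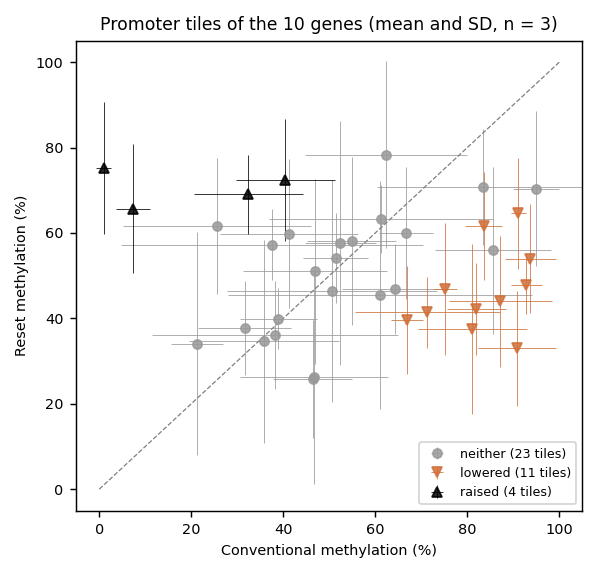
Reset against conventional methylation (%) of the 38 promoter tiles of the 10 genes, each point with the mean and SD of 3 libraries in both directions and the dashed line marking no change. The 4 raised tiles (black triangles) start at or below 40.5% and the 11 lowered ones (orange) at 66.96% or more.

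The raised tiles held 14 to 29 CpGs, with a median of 26, and the lowered ones 3 to 21, with a median of 7. Over all promoters the medians were 11 for raised and 5 for lowered tiles, but in the 5110 promoters both were 5, with 12 raised tiles. At single CpGs with at least 6 calls in each group, 18 of 221 were higher by 40 points or more in reset cells and 40 lower by as much (8.14% and 18.1%). CpGs of both kinds were found in TACR3 (2 higher and 6 lower), TRIM4 (9 and 6) and SCT (2 and 12), and also in NCKAP5 (1 and 5), TNS1 (2 and 3), LGALS12 (1 and 1) and MMP19 (1 and 4). In these last 4 genes, and in TACR3 and SCT, the higher kind was only 1 or 2 CpGs, and opposite changes there are not established by these counts. No separation of the libraries was asked for in any gene. MAP10, DNAH8 and LY6K had 1 lower CpG each and none higher. In the 5110 promoters these shares were 0.0681% and 69.9%. The counts of single CpGs depended on depth: 18 became 2 and 40 became 18 at a minimum of 10 calls. The CpGs measured were 221 of 574, and in SCT only 21 of 138, of which 18 were at 80% or more in conventional cells. Leaving out conventional replicate 1 or reset replicate 1, 2 or 3 gave 8, 11, 2 or 6 raised CpGs, and leaving out reset replicate 1 or 3 gave 19 or 25 lowered ones.

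To put the pieces on 1 scale, the change of each promoter was split into the sum over tiles that gained, the sum over tiles that lost, each weighted by its share of calls, and a remainder from calls shifting between tiles. These parts were 26.8 and -20.96 points at SCT, 16.5 and -14.97 points at TACR3, and 13.7 and -10.02 points at TRIM4. In the other 7 the gaining part was between 2.38 and 7.75 points and the losing part between -5.83 and -16.9. In each of the 6 ways of leaving out 1 library, SCT, TACR3 and TRIM4 had larger gaining parts than the other 7, but the gap narrowed: without reset replicate 1 the gaining part was 16.5 points at TRIM4 and 12.9 at DNAH8, and without conventional replicate 1 it was 8.52 at TRIM4 and 6.79 at TNS1. The balance of gains and losses also changed with the CpGs that were counted and with the promoter drawn. Over CpGs with a call in every library the parts of SCT were 7.86 and -35.5 points, and the gaining part of LGALS12, 11.9 points, was larger than that of SCT. From 500 bp upstream to 500 bp downstream they were 54.9 and -1.03 points at SCT and 27.01 and -0.33 points at TACR3. The remainder was between -2.30 and 3.46 points. The median promoter of the 5110 had a gaining part of 0 and a losing part of -52.4 points. This contrast is a description, since the rule left promoters that kept their level out of the 5110. Tiles of any depth entered the split. A gaining part cannot be below 0 nor a losing part above it, so counting error can add to both.

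**Figure D4:**
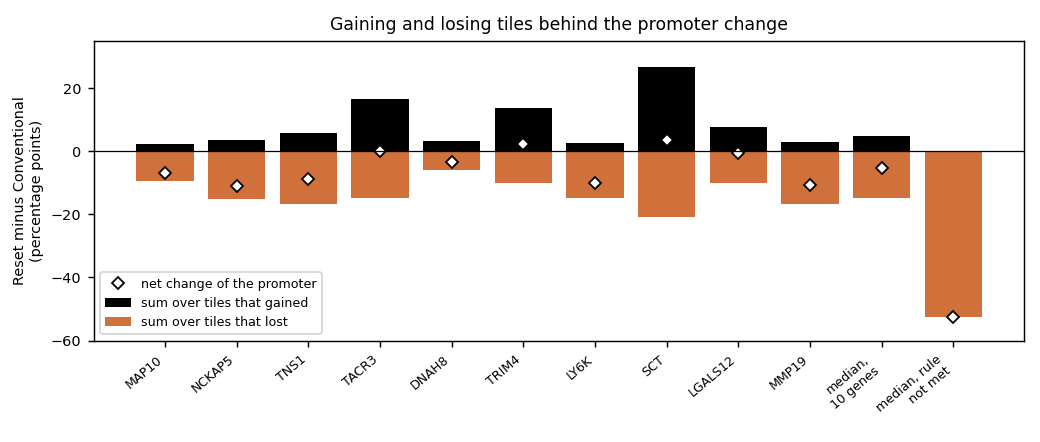
Change in promoter methylation between conventional and reset cells (percentage points) split into the sum over gaining 200-bp tiles (black) and over losing tiles (orange), with the net change as a diamond, for the 10 genes, their median and the median of the 5110 promoters that did not meet the rule. SCT, TACR3 and TRIM4 have gains of 13.7 points or more beside losses of 10.02 points or more for this promoter window and these CpGs. The median of the 5110 is loss alone, which the rule largely fixes.

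The average therefore depended on where the promoter was drawn. From 500 bp upstream to 500 bp downstream, SCT went from 15.7% to 69.1% and TACR3 from 38.8% to 64.8%, and 5 of the 10 promoters no longer met the rule, in each case because the conventional level was under 50%. SCT also changed with the CpGs that were counted. With every CpG given equal weight it went from 44.5% to 60.7%, and over CpGs with a call in every library from 77.3% to 48.7%. By strand, SCT stood at 31.4% on the top and 62.2% on the bottom strand in conventional cells, and at 63.5% and 55.3% in reset cells. DNAH8 and LGALS12 met the rule under each of the 13 alternatives that were run, and LY6K under 3 and NCKAP5 under 6. LY6K kept 74.8% with calls pooled per group, 76.2% with equal weight for every CpG and 74.2% on the top strand, and NCKAP5 kept 69.1% with equal weight and 68.3% on the top strand. MMP19, which met it under 10, kept 74.6% with equal weight.

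The flanks of the 10 genes were mostly lower in reset cells. TNS1 had no flank tile with enough calls. Of 64 flank tiles tested in the other 9 genes, 54 were lowered (84.4%) and none raised, and 62 had a lower mean in reset cells. Around the 5110 promoters 86.5% of flank tiles were lowered and 0.18% raised, and over all promoters 71.6% and 1.65%. The flanks kept between 36.3% of their methylation at MAP10 and 73.0% at TACR3. For LY6K all 10 flank tiles were lowered and the flanks went from 89.9% to 33.9%.

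A steady level could also go with a change in the number of calls, so the coverage of all promoters was compared with edgeR's quasi-likelihood test. Of 19477 promoters tested, 51 differed (0.262%), 40 of them lower and 11 higher in reset cells. These counts were not steady: leaving out any 1 library gave 8 to 25 lower and 2 to 13 higher, and DESeq2 gave 35 higher. None of the 10 was among them, none had an unadjusted p under 0.05, and DESeq2 called none. Their Benjamini-Hochberg adjusted p from edgeR lay between 0.687 and 0.988, and log2 changes between -0.36 at NCKAP5 and 0.25 at SCT. Coverage of these promoters was 36 to 278 calls per library.

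The choice of the 10 did not use the promoters of neighbouring genes, which were tested with a quasi-binomial model fitted over all 19300 promoters. In it 67.4% of promoters were lower and 3.97% higher in reset cells at an adjusted p of 0.05. Of the nearest coding gene on each side of the 10, 20 in all, 12 were lower, 4 higher and 4 not called. The start of CDHR5, a cadherin gene of intestinal microvilli, lies 2.23 kb from that of SCT. Its promoter fell from 95.9%, 91.5% and 87.2% to 43.7%, 34.1% and 43.1% (adjusted p = 6.48e-07, limma), with no overlap. PSCA, 19.6 kb from LY6K, fell from 78.9% ± 4.31 to 29.7% ± 11.7 (adjusted p = 1.70e-05, limma), and OR2AE1, 42.5 kb from TRIM4, from 89.4% ± 4.39 to 36.2% ± 5.91 (adjusted p = 3.40e-06).

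The 4 neighbours that were higher started low. DRD4, the dopamine D4 receptor gene 10.1 kb on the other side of SCT, had 9.26%, 12.4% and 8.20% in conventional cells and 36.96%, 34.7% and 29.4% in reset cells (adjusted p = 9.99e-07, limma). PLAAT5, a phospholipid acyltransferase gene 14.9 kb from LGALS12, went from 21.7% ± 6.13 to 52.2% ± 6.77 (adjusted p = 3.10e-05). GLP1R, the receptor gene for glucagon-like peptide 1, lies 333 kb from DNAH8 and went from 8.19% ± 2.14 to 26.8% ± 5.19 (adjusted p = 0.000185). LYPD1, 898 kb from NCKAP5, changed by 3.099 points only, from 0.37% to 3.47% (adjusted p = 0.00737). These calls were present with the promoter from 500 bp upstream to 500 bp downstream and without any 1 library. Of the 12 lower neighbours 9 were called with that promoter: NTPCR changed by -0.29 points there in place of -12.4, PYM1 by -1.27 in place of -18.98 and GJC3 by -3.99 in place of -15.2. GJC3, which lies beside TRIM4 and had an adjusted p of 0.0418 (limma), was also not called in 4 of the 6 fits without 1 library. Nor was it called in a fit with the replicate number of the labels as a block.

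**Figure D5:**
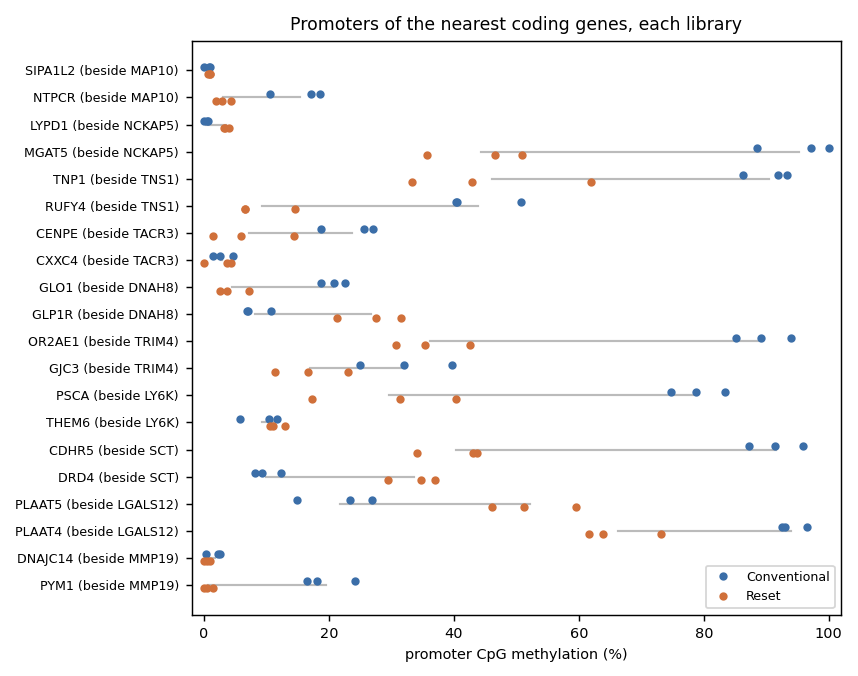
Promoter CpG methylation (%) of the nearest coding gene on each side of the 10 genes, with 3 conventional (blue) and 3 reset (orange) libraries per gene and a grey line joining the group means. Most fall, among them CDHR5 from 91.5% to 40.3%, while GLP1R, DRD4 and PLAAT5 are higher in every reset library.

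Relatives of the 10 genes, chosen by family and not by level, were 98 genes in 10 lists, of which 96 could be tested. In the same model 69 were lower, 6 higher and 21 not called. With the promoter from 500 bp upstream to 500 bp downstream 53 were lower and 5 higher. Among these 5 were ADCYAP1 and LGALS8, at 5.35 and 9.97 points (adjusted p = 0.00783 and 0.0128, limma). Neither was called with the full promoter, where they differed by 3.62 and -4.40 points. TRIM7 was called lower with the shorter promoter only. The calls of TRIM5, TRIM27, VIP, CD59, PLAUR, LGALS3, MMP14, MMP15 and MMP17 were lost with it, beside those named below. The 48 relatives that were at least 50% methylated in conventional cells kept a median of 42.5%, against 37.1% over all promoters of that kind. Of the hormones of the secretin family, 4 of 5 were lower and none higher with the full promoter. GCG, the glucagon gene, fell from 92.7% ± 3.12 to 6.76% ± 2.73 and GIP, the gene of the gastric inhibitory polypeptide, from 92.2% ± 2.36 to 50.01% ± 8.15 (adjusted p = 2.97e-08 and 1.08e-06, limma). Of the other tachykinin receptors, TACR2 fell from 93.3% ± 4.26 to 39.4% ± 6.88 and TACR1 rose from 2.44% ± 1.94 to 8.44% ± 3.04 (adjusted p = 4.54e-07 and 0.00682, limma).

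Among 14 other TRIM proteins with a RING and a B30.2 domain 7 were lower and 1 higher. That one was TRIM25, a ubiquitin ligase of antiviral signalling, at 7.56%, 2.92% and 3.52% in conventional cells and 50%, 38.1% and 48.5% in reset cells (adjusted p = 1.76e-07, limma). TRIM58 fell the most of those at 50% or more, from 79.0% ± 9.91 to 8.33% ± 3.53, and TRIM22, an interferon-induced gene, had the smallest difference, from 56.9% ± 4.55 to 40.2% ± 9.05, and was not called (adjusted p = 0.0849, limma). Of 12 other axonemal dynein heavy chains 11 were lower, with DNAH3 at 57.7% and DNAH5 at 36.1% in reset cells, from 91.4% and 93.4%. With the shorter promoter 4 of these calls were lost, those of DNAH9, DNAH10, DNAH11 (-12.05 points to 0.33) and DNAH14. The call of DNAH14 was also lost in 3 of the 6 fits without 1 library, and that of DNAH10 in 2. With the replicate number as a block that of DNAH14 was lost too.

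Of 19 relatives of LY6K 14 were lower and 2 higher. SLURP1 fell to 20.3% and SLURP2 to 53.3%, from 87.7% and 87.8%, while LY6H (3.71% to 9.49%) and LYPD1 were the ones that rose. The calls of TACR1, LY6H and MMP2 were lost with the promoter from 500 bp upstream to 500 bp downstream. The call of LY6H was also lost in 4 of the 6 fits without 1 library, and that of MMP2, below, in 5. With the replicate number as a block that of LY6H was lost too. Of 12 galectins tested 11 were lower and none higher with the full promoter. Among those at 50% or more in conventional cells the largest and smallest falls were at LGALS2 (90.7% to 26.3%) and LGALS16 (62.0% to 26.8%). The call of LGALS16 was lost without reset replicate 2 (adjusted p = 0.058, limma). Of 20 matrix metalloproteinases tested 15 were lower and 2 higher. MMP3 fell from 93.2% to 15.8% and MMP26 from 62.7% to 32.0%, and MMP2 and MMP25 rose from 6.83% to 14.6% and from 1.201% to 6.35%. Of 3 other tensins 2 were lower, TNS4 among them from 81.8% to 22.2%, and of 8 microtubule-associated proteins 4 were lower, MAP4 from 98.3% to 58.3%. The calls of TNS3 and of MAP1A, another of these 4, were lost with the shorter promoter, where MAP1A differed by 0.51 points, and that of MAP1A (adjusted p = 0.0477, limma) also in 5 of the 6 fits without 1 library. NCKAP5L, the paralog of NCKAP5, was at 3.36% and 1.76% and was not called. Of all 5129 promoters at 50% or more in conventional cells 0.37% met the rule, and of the relatives at that level none did. Among these relatives the highest share kept was that of TRIM22, 70.6%.

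The promoters most like the median of the 10 over the 6 libraries, among those outside the rule, were those of FXYD2, TBX10 and CD74, with root mean square distances of 7.49, 7.98 and 8.01 points. They kept 77.9%, 77.6% and 75.4%. The 10 promoters held 20 to 138 CpGs, with a median of 51 against 21 in the 5110, and had a median conventional level of 55.9% against 88.2%. Since the rule asked for a level that was kept, and the starting level enters that share, this difference in starting level was not read further.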

How the data were processed

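Whole-genome bisulfite libraries were made from H9 DNA. Per the labels and the study's methods, the authors used Trim Galore for trimming, and Bismark and Bowtie2 for alignment to GRCh37. The labels give Bismark 0.9.0 and the study's methods an earlier version, so the version used is uncertain; removal of duplicate reads is not given in the sources used here. The deposited tables hold, for each cytosine, how often it was read as methylated and as unmethylated (counts) and the percent methylated that the authors derived from them. Positions in the tables count from 0 and were shifted by 1.

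Calls of both strands were added per CpG and summed over promoters and tiles, with starts from the Ensembl canonical transcripts on GRCh37, and a group's level is the mean over its 3 libraries. The depth was 2.51 to 3.49 calls per CpG. Relatives and neighbours were tested with a quasi-binomial model of the calls over all promoters with at least 10 calls in each library (limma 3.58.1 for the dispersion, kept at 1 or more; Benjamini-Hochberg, threshold 0.05), and coverage with edgeR 4.0.16 (TMM, filterByExpr) and, as an alternative, DESeq2 1.42.0, in R 4.3.3. The tests and the tile classes were tested on simulated data.

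The 10 promoters and all lists were chosen with earlier results of these data known. Named were the 10, the promoters just inside and outside each threshold, the nearest coding neighbours, the 3 promoters most like the 10, and of each list of relatives those called higher and, of those at 50% or more in conventional cells, the smallest and the largest fall. Each library counted as 1 sample. Pairs of libraries of 1 group differed by more than independent calls would (chi-square per promoter of 1.67 to 2.45 at 1 degree of freedom). Calls of 1 read are not independent, so this value alone does not show that the libraries differ. Every column of the tables belonged to a labelled library. Alternatives were other promoter bounds, minimum depths, tile sizes, weights of CpGs, tests and the leaving out of each library. The tile sequences of SCT are not reported here.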

Additional observations from a re-analysis of the deposited data

How the results depend on the processing

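Of the settings that changed a count by more than 1.5 times, the promoter from 500 bp upstream to 500 bp downstream gave 7555 lower promoters in place of 13012, and with it, or with equal weight for every CpG, 5 of the 10 met the rule; with the top strand alone 6 did, and 29 promoters in all in place of 19. A minimum of 10 calls per library left 2 raised and 6 lowered tiles in place of 4 and 11; a difference of 40 points left 2 and 4, and 1 gene with both; tiles of 500 bp gave 7 lowered. At single CpGs a minimum of 10 calls left 2 raised and 18 lowered, and a difference of 60 points 6 and 8. DESeq2 called 35 promoters more covered in reset cells in place of 11. Leaving out 1 library gave 8 to 25 promoters with lower and 2 to 13 with higher coverage, 4 to 9 raised tiles, 3 to 6 genes with both kinds, 2 to 14 raised and 19 to 34 lowered CpGs. Of the relatives and neighbours, 21 lost their call with the shorter promoter, and none of them changed direction while called.

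The replicate numbers of the labels gave no sign of pairing. Deviations of same-numbered libraries correlated at 0.00999, 0.00824 and 0.00166 over 17819 promoters. Those of differently numbered libraries lay between -0.0207 and 0.0118. Counting noise at this depth can hide a correlation, so a pairing by replicate number is not excluded. A fit with the number as a block gave 12733 lower and 704 higher promoters, 11 lower and 4 higher neighbours, 68 lower and 5 higher relatives, and 37 and 9 promoters of lower and higher coverage. The alternative with RefSeq starts was not run, as no RefSeq annotation of GRCh37 was used here.

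At 36 to 278 calls per promoter and library, and 5 or more per tile, differences of less than about 1 library's counting interval were not detectable. Tiles with fewer calls, and the CpGs without calls, could not be described. The cause of the changes between settings was not tested, apart from the smaller number of tiles and CpGs that stricter minimums leave.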
